A study of Mus musculus with 6 samples.

Results

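The transcripts of 10 core genes of the circadian clock, Per1, Per2, Per3, Cry1, Cry2, Arntl, Clock, Nr1d1, Nr1d2 and Dbp, were followed through an RNA immunoprecipitation study of mouse heart. They were taken by gene symbol from a table of 24421 symbols, and all 10 were found and passed the filter on low values. RNA came from whole hearts of C57BL6/J mice aged 4 weeks. An antibody against Cnot3 brought RNA down from heart lysate in 2 libraries (Cnot3 RIP), control IgG did so in 2 more (control IgG RIP), and 2 held RNA of the starting lysate (Input). No genotype or treatment other than the antibody is named in the labels. The labels do not say whether the replicates came from separate animals, so the spread behind the p-values is that of these libraries and could be purely technical. The time of day at which hearts were taken is not given in the sources used here.

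Cnot3 belongs to CCR4-NOT, a complex with deadenylases that trim mRNA tails. The circadian clock of mammalian cells is a feedback loop of transcription. The proteins of Arntl (also called BMAL1) and Clock form a pair that binds E-boxes and switches on the Per and Cry genes, whose proteins then block that pair. Nr1d1 and Nr1d2 encode REV-ERB repressors that act on Arntl, and Dbp encodes an activator that binds D-boxes. In mouse tissues, the heart included, Arntl mRNA is known to be high at the time of day when Per, Dbp and REV-ERB mRNAs are low.

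Promoter sequences are given for 4 of these genes, as windows that hold letters matching motifs known for clock factors. They are RefSeq windows on GRCm38.p6, from 250 bases before to 50 bases after an annotated start, in lower case with matches to 3 motifs in capitals. The motifs were the E-box CACGTG, the D-box TTATGTAA and AGGTCA, a core of the sites that REV-ERB and ROR proteins bind, searched on both strands. Of the 10 genes, 9 had a window and Per2 had none.
Per1, chr11:69098699-69098998, plus strand: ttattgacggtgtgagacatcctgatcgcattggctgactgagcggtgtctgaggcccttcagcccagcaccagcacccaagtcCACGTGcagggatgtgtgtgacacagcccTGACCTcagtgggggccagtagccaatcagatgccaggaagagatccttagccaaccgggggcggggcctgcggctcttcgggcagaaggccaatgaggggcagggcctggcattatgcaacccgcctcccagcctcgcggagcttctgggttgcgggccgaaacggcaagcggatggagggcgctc
Cry1, chr10:85185005-85185304, minus strand: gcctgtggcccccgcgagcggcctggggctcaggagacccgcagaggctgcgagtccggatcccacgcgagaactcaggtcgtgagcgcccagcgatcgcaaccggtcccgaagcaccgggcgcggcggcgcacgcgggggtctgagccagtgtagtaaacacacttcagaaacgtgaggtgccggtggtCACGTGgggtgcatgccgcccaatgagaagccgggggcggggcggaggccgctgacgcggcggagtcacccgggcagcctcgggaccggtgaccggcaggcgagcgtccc
Per3, chr4:151044616-151044915, minus strand: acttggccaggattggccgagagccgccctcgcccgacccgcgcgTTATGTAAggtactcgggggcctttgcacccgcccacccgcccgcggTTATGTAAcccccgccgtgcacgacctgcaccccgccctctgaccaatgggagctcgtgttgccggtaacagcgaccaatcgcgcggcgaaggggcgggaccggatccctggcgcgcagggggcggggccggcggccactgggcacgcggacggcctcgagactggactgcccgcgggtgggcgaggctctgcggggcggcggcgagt
Arntl, chr7:113207261-113207560, plus strand: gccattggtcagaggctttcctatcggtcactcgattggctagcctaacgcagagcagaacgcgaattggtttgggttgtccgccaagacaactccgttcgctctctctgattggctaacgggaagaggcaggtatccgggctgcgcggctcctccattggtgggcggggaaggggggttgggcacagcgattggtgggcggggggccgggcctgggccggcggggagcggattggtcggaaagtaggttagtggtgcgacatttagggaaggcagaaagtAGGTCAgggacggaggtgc
The Per1 window shown, 1 of 2, held an E-box at position −166 from the start and AGGTCA, in the reverse direction, at −137, and the other held none of the 3 motifs. Cry1 had an E-box at −60, Per3 had D-boxes at −205 and −158, and the Arntl window shown, also 1 of 2, had AGGTCA at base 32 of the transcript, with none of the motifs in the other. Among the 5 other genes with a window, Nr1d2 and 1 of the 3 windows of Clock held AGGTCA, and Cry2, Nr1d1 and Dbp held none of the 3 motifs. Of all 32851 windows, 7.15% held the E-box, 0.938% the D-box and 16.3% AGGTCA. Counted by gene, with a match in any window, the shares were 8.09%, 1.11% and 18.1% of 27025 genes. These matches are descriptions of the letters and do not show binding.

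The authors deposited CPM (the reads of a gene relative to all reads of its library), from which whole reads were recovered. The 6 libraries held 15713318 to 33479580 reads, and 3407528 to 12500739 without the ribosomal RNA precursor Rn45s. Values below are scaled CPM, that is CPM corrected with TMM factors for differences in library composition. Defining markers of heart muscle (Myh6, Actc1, Tnnt2, Ryr2, Pln and Myl2) summed to 17600 to 34000 scaled CPM per library, and liver markers to 0.06 to 0.554. Fewer cells of a type and less RNA per cell cannot be told apart in such bulk RNA.

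Transcripts of the Period genes, Arntl and Dbp differed widely between the libraries of each group, and those of the other clock genes less. For Nr1d1, 25%, 60.9% and 46.9% of all genes tested differed more in Cnot3 RIP, control IgG RIP and Input. For the gene Clock these shares were 32.4%, 24.7% and 9.57%. Per2, a repressor of the loop on chromosome 1 (91415982 to 91459324, minus strand), had the widest spread. It stood at 3.99 and 49.0 scaled CPM in Cnot3 RIP replicates 1 and 2, at 32.0 and 4.76 in control IgG RIP replicates 1 and 2, and at 2.03 and 13.1 in Input replicates 1 and 2. The high libraries were thus Cnot3 RIP replicate 2, control IgG RIP replicate 1 and Input replicate 2, and the ranges of all 3 groups overlapped. The folds between the libraries were 12.3 in Cnot3 RIP, 6.73 between control IgG RIP libraries and 6.44 between those of Input. Of the 13010 genes tested, 2 differed more between the Cnot3 RIP libraries, 2 between the control IgG RIP libraries and 4 between the Input libraries.

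**Figure D1:**
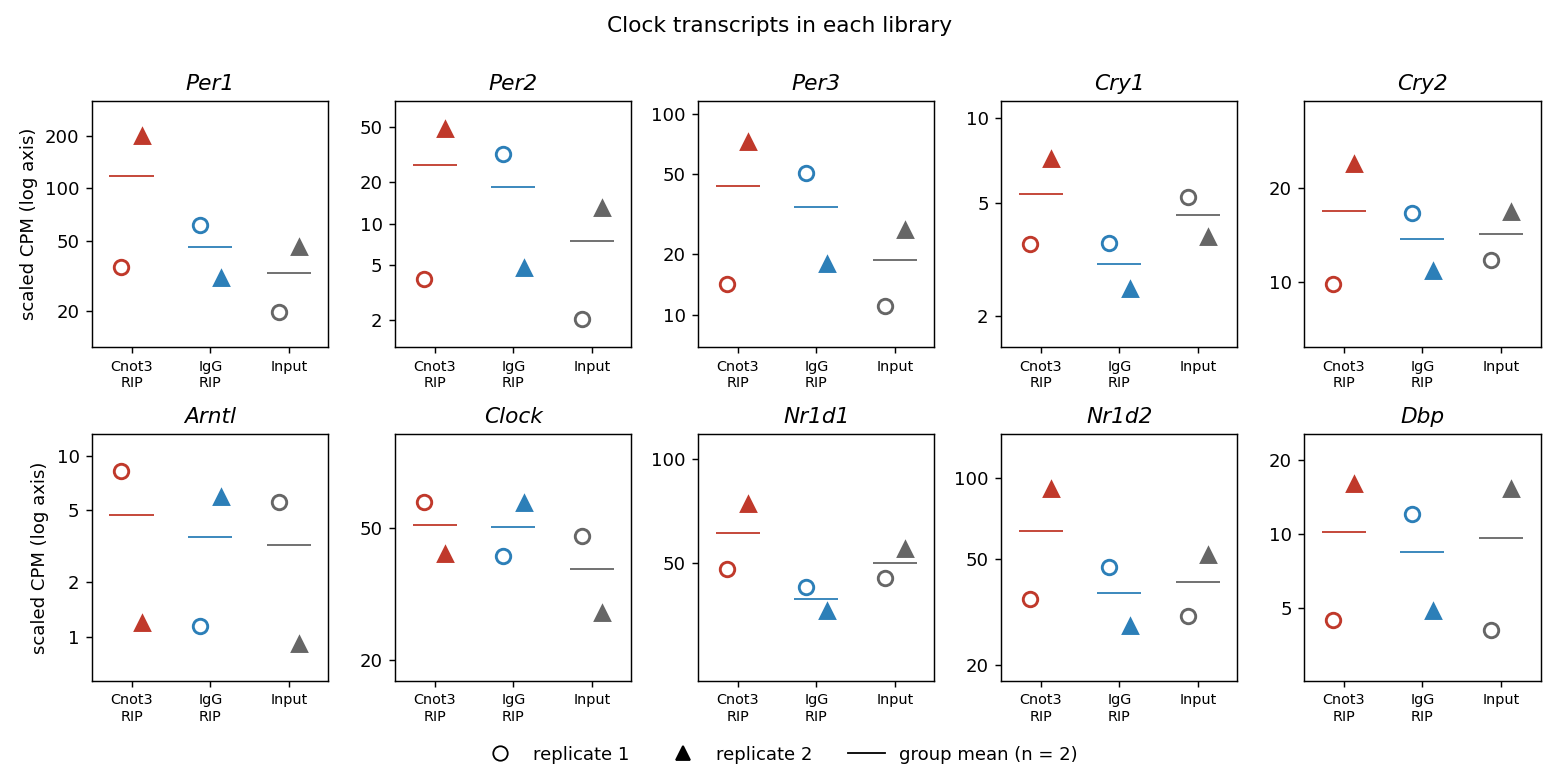
Level of each clock transcript in scaled CPM (log axis, with its own range in each panel) in Cnot3 RIP, control IgG RIP and Input. Circles are replicate 1, triangles replicate 2 and lines group means (n = 2). Per2 was high in Cnot3 RIP replicate 2 (49.0), control IgG RIP replicate 1 (32.0) and Input replicate 2 (13.1), the libraries in which Arntl was low.

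The other Period genes followed Per2. Per1, which responds quickly to signals as well as to the clock, lies on chromosome 11 (69095217 to 69109960, plus strand). Its level was 35.6 and 198 scaled CPM in Cnot3 RIP replicates 1 and 2, 61.5 and 30.9 in the control IgG RIP pair and 19.9 and 46.1 in the Input pair. Per3, on chromosome 4 (151003652 to 151044665, minus strand), had 14.2 and 72.7 scaled CPM in Cnot3 RIP, 50.5 and 17.9 in the control IgG RIP libraries and 11.0 and 26.4 in those of Input, each pair again in the order of replicates 1 and 2. For both genes the same 3 libraries were the high ones, and Cnot3 RIP replicate 2 was the highest of all. Between the Cnot3 RIP libraries the fold was 5.57 for Per1 and 5.10 for Per3.

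Cryptochrome transcripts differed less. Cry2, whose protein joins the Per proteins in repression, lies on chromosome 2 (92403646 to 92434043, minus strand). Cry2 levels were 9.83 and 23.9 scaled CPM in Cnot3 RIP replicates 1 and 2, 16.6 and 10.8 in the control IgG RIP pair and 11.7 and 16.8 in the Input pair, with the same libraries high as for the Period genes. Cry1, on chromosome 10 (85131700 to 85185064, minus strand), is the other cryptochrome of this loop. It had 3.60 and 7.19 scaled CPM in Cnot3 RIP, 3.63 and 2.49 in the control IgG RIP libraries and 5.26 and 3.81 in those of Input. Its higher Input library was replicate 1, unlike that of Cry2, and it rested on 57 and 79 reads there, with a counting interval of the difference that included 0.

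The activator genes ran the other way. Arntl, on chromosome 7 (113207465 to 113314126, plus strand), stood at 8.23 and 1.20 scaled CPM in Cnot3 RIP replicates 1 and 2, 1.15 and 5.94 in the control IgG RIP pair and 5.54 and 0.917 in the Input pair. In each group the library with much Per2 was the one with little Arntl. The folds between the libraries were 6.86 in Cnot3 RIP, 5.15 between control IgG RIP libraries and 6.04 between those of Input, from as few as 19 reads in Input replicate 2 and 20 in replicate 1 of control IgG RIP. Clock, the partner of Arntl on chromosome 5 (76209868 to 76304792, minus strand), differed in the same direction by less. It had 60.2 and 41.8 scaled CPM in Cnot3 RIP, 41.3 and 59.6 in the control IgG RIP libraries and 47.5 and 27.7 in those of Input, again in the order of replicates 1 and 2.

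The REV-ERB genes and Dbp went with the Period genes. Nr1d2, on chromosome 14 (18204054 to 18239127, minus strand), stood at 35.5 and 91.7 scaled CPM in Cnot3 RIP replicates 1 and 2, 46.5 and 28 in the control IgG RIP pair and 30.6 and 51.5 in the Input pair. Nr1d1, on chromosome 11 (98767932 to 98775333, minus strand), had 48.0 and 74.0 scaled CPM in Cnot3 RIP, 42.4 and 36.3 in the control IgG RIP libraries and 45.1 and 54.7 in those of Input. Its folds between libraries were 1.54, 1.17 and 1.21 in Cnot3 RIP, control IgG RIP and Input and were the smallest among the 10 genes in control IgG RIP and Input, and in Cnot3 RIP only that of Clock, 1.44, was smaller. Nr1d1 shares 263 bases of exon with Thra, a thyroid hormone receptor gene on the other strand, and the strand setting of the counting is not given in the sources used here, so reads from these bases cannot be told apart. Thra had 26.9 and 21.9 scaled CPM in Cnot3 RIP, 14.7 and 24.1 in the control IgG RIP pair and 28.2 and 24.7 in the Input pair, with the order of its libraries opposite to that of Nr1d1 in each group.

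Dbp, on chromosome 7 (45705088 to 45710203, plus strand), stood at 4.49 and 15.9 scaled CPM in Cnot3 RIP replicates 1 and 2, 12 and 4.89 in the control IgG RIP libraries and 4.06 and 15.2 in those of Input. The folds between its libraries were 3.53, 2.45 and 3.73 in Cnot3 RIP, control IgG RIP and Input. Dbp shares 539 bases of exon, 18% of its own, with Sphk2 on the other strand. Sphk2 stood between 7.16 and 9.69 scaled CPM in all 6 libraries, so it did not show the spread of Dbp, and reads from the shared bases again cannot be told apart. Arntl and Cry2 overlap noncoding genes on the other strand by 33 and 295 bases of exon. Per3 overlaps the protein-coding gene Camta1, and Clock overlaps Gm43658 and the pseudogene Ube2n-ps1. Those genes lie on the same strand as the clock gene and share 0 bases of exon with it.

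**Figure D2:**
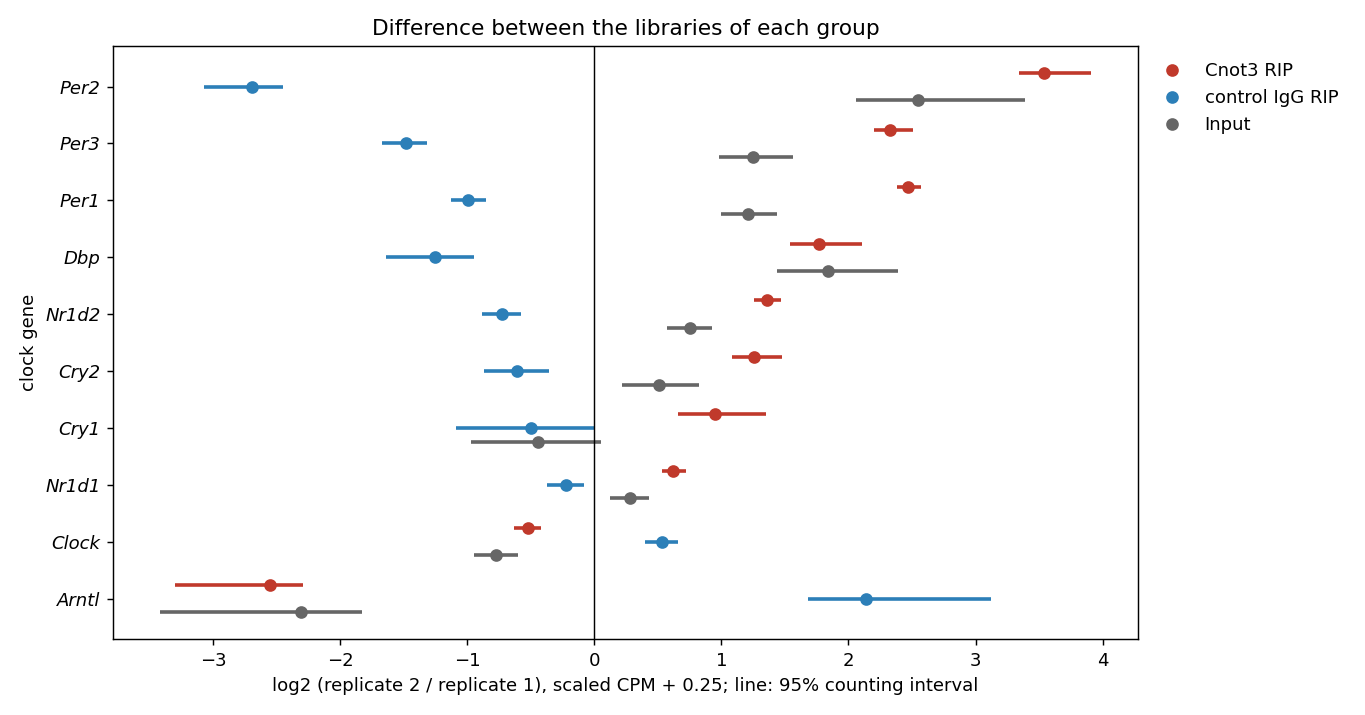
Log2 ratio of replicate 2 over replicate 1 for each clock gene in Cnot3 RIP, control IgG RIP and Input. Points are from scaled CPM plus 0.25. Lines are 95% counting intervals, which were taken from the reads without the added 0.25 and so need not centre on the points. Per2 lies at 3.54, −2.69 and 2.55 and Arntl at −2.55, 2.14 and −2.31, with the control IgG RIP libraries on the other side of 0 from both other groups.

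A shared order of the libraries was counted over all genes tested. This count was chosen after the values of the clock genes had been seen. Transcripts were higher in Cnot3 RIP replicate 2, control IgG RIP replicate 1 and Input replicate 2 than in the other library of their group for 7 of the 10 clock genes, against 20.9% of all genes tested. The opposite order held for Arntl and Clock, 2 of the 10, against 16.5% of all genes, and Cry1 had neither. The count of 2 is thus close to the share of all genes. With at least a 2-fold difference in all 3 groups, Per2, Per3 and Dbp remained in the first order, against 0.338% of all genes, and Arntl in the opposite one, against 0.354%. Per1 missed this limit only in control IgG RIP, where its log2 ratio was −0.99. The 95% counting interval of the ratio included 0 for Cry1 in control IgG RIP and Input, and left it out for Cry1 in Cnot3 RIP and for the 9 other genes in every group. These intervals cover counting error only and compare pairs of libraries, not conditions.

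Distances between libraries over the clock genes rest on the same values, so they describe that order again and are not a separate test of it. Over the 10 clock genes, the median absolute log2 difference between the libraries of 1 group was 1.56 in Cnot3 RIP, 0.86 between control IgG RIP libraries and 0.99 between those of Input. Across groups it was 0.28 between Cnot3 RIP replicate 1 and control IgG RIP replicate 2, 0.35 between Cnot3 RIP replicate 1 and Input replicate 1, 0.32 between control IgG RIP replicate 2 and Input replicate 1 and 0.35 between control IgG RIP replicate 1 and Input replicate 2. Over all genes tested the libraries of 1 group differed by 0.35, 0.29 and 0.26 in Cnot3 RIP, control IgG RIP and Input, and those 4 pairs by 0.22, 0.36, 0.36 and 0.47. Cnot3 RIP replicate 2 stood at 0.57 from control IgG RIP replicate 1 and at 0.71 from Input replicate 2, where all genes tested gave 0.44 and 0.51. The 6 other pairs from different groups stood at 0.74, 0.76, 0.82, 1.05, 1.67 and 1.74, so that 3 of them, too, lay closer together than any pair from 1 group. The closest pair, Cnot3 RIP replicate 1 and control IgG RIP replicate 2, was also the closest over all genes.

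Depth and markers of other cells moved with these libraries, and their part in the clock values was not tested. Reads without Rn45s numbered 8999040 and 12500739 in Cnot3 RIP replicates 1 and 2, 7172223 and 7023051 in the control IgG RIP pair and 3407528 and 6954079 in the Input pair, with more in each library that had much Per2. Endothelial markers (Pecam1, Cdh5 and Tek) summed to 228 and 141 scaled CPM in Cnot3 RIP replicates 1 and 2, 153 and 217 in the control IgG RIP libraries and 183 and 168 in those of Input. Fibroblast markers (Col1a1, Dcn and Pdgfra) summed to 324 and 193 in Cnot3 RIP, 221 and 302 in the control IgG RIP pair and 290 and 270 in the Input pair, and markers of smooth muscle and pericytes (Myh11, Rgs5 and Pdgfrb) to 212 and 126 in Cnot3 RIP, 135 and 218 in the control IgG RIP libraries and 162 and 145 in those of Input. These 3 sums were lower in the libraries with much Per2. Single markers did not all do so: Myh11 stood at 22.8 and 21.7 in the control IgG RIP pair and Dcn at 155 and 156 in the Input pair. The 6 heart muscle markers had a higher sum there, at 23100 and 24500 scaled CPM in Cnot3 RIP, 34000 and 18400 in the control IgG RIP pair and 17600 and 20700 in the Input pair. Myh6 was the largest part of that sum in every library, and single markers did not all share the order of the sum. In Cnot3 RIP replicates 1 and 2 Myh6 was level, at 15500 and 15500 scaled CPM. Ryr2 stood there at 2300 and 3410, Pln at 1280 and 1830 and Actc1 at 2340 and 2630, higher in the library with much Per2. Tnnt2 stood at 977 and 722 and Myl2 at 658 and 445 scaled CPM in these libraries, lower in the one with much Per2. Leukocyte markers (Ptprc, Csf1r and Cd68) summed to 43.6 and 29.3 in Cnot3 RIP, 40.1 and 45.1 in the control IgG RIP pair and 33.7 and 37.9 in the Input pair, and skeletal muscle markers (Myh4, Myh1 and Ckm) to 218 and 188 in Cnot3 RIP, 229 and 224 in the control IgG RIP libraries and 261 and 375 in those of Input. The leukocyte and skeletal muscle sums did not share the order of Per2 or its opposite in all groups.

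Other genes of the clock pathway were read from a list of 29 by role, of which 28 were tested and Fbxl21, with at most 3 reads in a library, was not. The order of the libraries seen for Per2 held for 13 of these 28 and the opposite one for 4, where all genes tested gave 20.9% and 16.5%. The count of 4 is thus no larger a share than that of all genes. Ciart, a repressor of the Arntl and Clock pair, differed most, with 0.890 and 14.5 scaled CPM in Cnot3 RIP replicates 1 and 2, 4.21 and 0.861 in the control IgG RIP pair and 0.554 and 3.67 in the Input pair. Tef, a relative of Dbp that binds the same D-boxes, had 29.4 and 107 scaled CPM in Cnot3 RIP, 86.0 and 28.8 in the control IgG RIP libraries and 31.8 and 90.6 in those of Input. Ciart, Tef and Usp2, which encodes a deubiquitinase of clock proteins, were the 3 of the 28 with at least 2-fold in all groups. Npas2, a paralog of Clock that also pairs with the Arntl protein, went with Arntl at 10.3 and 5.22 scaled CPM in Cnot3 RIP, 2.54 and 7.25 in the control IgG RIP pair and 6.10 and 1.01 in the Input pair. Nfil3, a repressor that competes with Dbp at D-boxes, also went with Arntl, at 3.56 and 2.79 in Cnot3 RIP, 1.96 and 3.85 in the control IgG RIP libraries and 5.36 and 2.46 in those of Input, though its difference within Cnot3 RIP was inside the counting error. The other genes with that order were Btrc, which encodes a ubiquitin ligase subunit, and Nono, which encodes a partner of Per proteins, with differences inside the counting error in Input for both and in control IgG RIP for Btrc.

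Among clock outputs, Klf15, a transcription factor of heart metabolism, had 11.5 and 82.6 scaled CPM in Cnot3 RIP replicates 1 and 2, 18.6 and 9.74 in the control IgG RIP pair and 8.31 and 26.0 in the Input pair. Ccrn4l, which encodes nocturnin, had 21.0 and 136 in Cnot3 RIP, 23.4 and 14.7 in the control IgG RIP libraries and 11.6 and 26.9 in those of Input. Both had the order of Per2, as did Wee1, Nampt, Hlf, Bhlhe41, Cipc, Rora, Ncor1 and Hdac3. Differences of Ncor1 in Cnot3 RIP and Input and of Hdac3 in Input were inside the counting error.

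**Figure D3:**
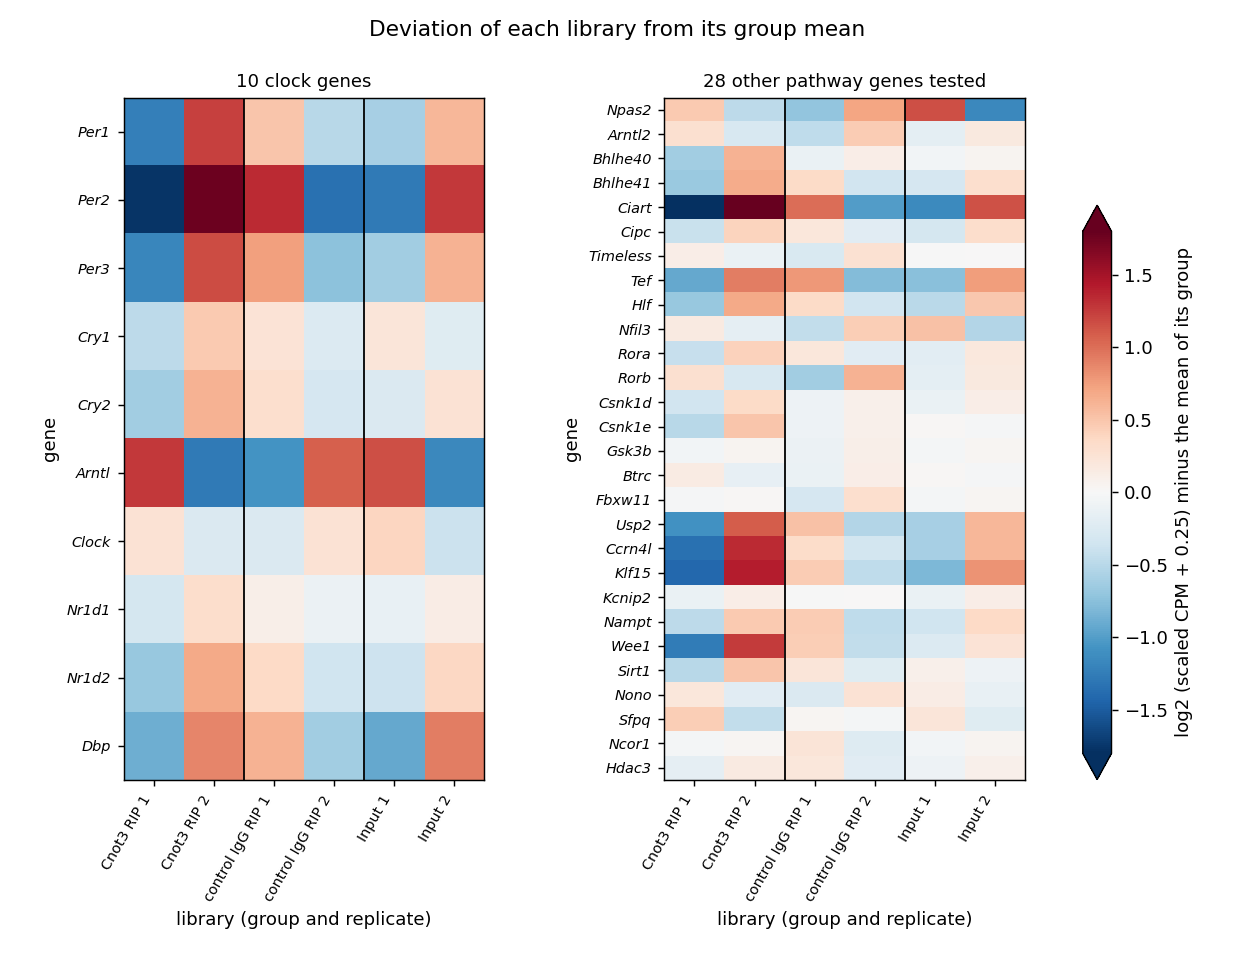
Deviation of each library from the mean of its group, in log2 of scaled CPM plus 0.25, for the 10 clock genes and the 28 other clock pathway genes tested. Red is above and blue below the group mean, and columns are libraries. Per2, Ciart and Tef are red where Arntl and Npas2 are blue, in Cnot3 RIP replicate 2, control IgG RIP replicate 1 and Input replicate 2.

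Genes with profiles most like those of Per1 and Arntl were sought over the 6 libraries, as the smallest distance between mean-centred log2 values. Candidates were 4803 genes with a mean of at least 10 scaled CPM, and the 10 clock genes were left out of them beforehand. Nearest to Per1 were Usp2, Ccrn4l, Pik3r1, Rhobtb1 and Wee1, at distances of 0.63, 0.67, 0.67, 0.74 and 0.75. Of these, Usp2, Ccrn4l and Wee1 are on the pathway list. Rhobtb1 stood at 46.8 and 329 scaled CPM in Cnot3 RIP replicates 1 and 2, 106 and 34.5 in the control IgG RIP pair and 30.3 and 100 in the Input pair. Nearest to Arntl were Eln, which encodes elastin, Adam19, Col5a3, Mki67 and Acta2, at distances of 0.84, 1.20, 1.21, 1.38 and 1.44. Eln had 71.2 and 20.7 scaled CPM in Cnot3 RIP, 18.2 and 68.0 in the control IgG RIP libraries and 61.4 and 20.5 in those of Input. The limit on the mean left out Npas2, Nfil3, Btrc and Nono as candidates.

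Levels of different genes were compared per kb of annotated exon, in Input. Nr1d1 was highest at 16.2 ± 2.21 scaled CPM per kb (SD, n = 2), then Nr1d2 at 7.59 ± 2.73, Per1 at 5.86 ± 3.29, Dbp at 3.22 ± 2.63 and Clock at 2.74 ± 1.02. Below them came Cry2 at 2.25 ± 0.571, Per3 at 1.95 ± 1.13, Cry1 at 1.36 ± 0.307, Per2 at 1.29 ± 1.34 and Arntl at 0.429 ± 0.435. Only Nr1d1 stood clear of its neighbour, at 14.7 and 17.8 per kb against 5.66 and 9.52 for Nr1d2, and every other pair of neighbours overlapped in range.

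Setting Cnot3 RIP against control IgG RIP addressed which transcripts were a larger part of the RNA brought down than in the background of the procedure. The scaling centres the bulk of genes near 0, so a rise shared by most genes would not show here. In limma, 0 of the 10 clock genes were called higher and 0 lower at an adjusted p under 0.05, where 1.54% of all genes were called higher and 0.277% lower. The edgeR quasi-likelihood test and DESeq2 on the recovered reads also called 0, and 1 gene, Nr1d1, had an unadjusted limma p under 0.05. Nr1d1 averaged 61.0 ± 18.4 scaled CPM with the Cnot3 antibody and 39.3 ± 4.31 with control IgG (SD, n = 2 each), or 0.60 in log2 fold change (SE 0.26), with a limma adjusted p of 0.281. With 1 library left out this value ran from 0.30 to 0.92. Only this clock gene had libraries that did not overlap between the groups, which was so for 45.9% of all genes. Per1 averaged 117 ± 115 in Cnot3 RIP against 46.2 ± 21.7 in control IgG RIP, with a log2 fold change of 0.94 and a 95% interval from −0.65 to 2.54 (limma adjusted p = 0.585). Its value turned on which Cnot3 RIP library was kept. Without Cnot3 RIP replicate 1 the log2 fold change of Per1 was 2.19, and without Cnot3 RIP replicate 2 it was −0.28.

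The 8 remaining clock genes had log2 fold changes from 0.01 for Clock to 0.71 for Cry1, with wide intervals. For Per2 the value was 0.18 with an interval from −2.54 to 2.91, for Arntl 0.25 with −1.95 to 2.45 and for Dbp 0.14 with −1.43 to 1.70. These intervals include changes of more than 2-fold in either direction. Clock had the narrowest interval of these 8, from −0.71 to 0.74 around 0.01. The median of the 10 was 0.22, beside 0.00 over all genes tested. Cry2, Per3 and Nr1d2 had 0.19, 0.10 and 0.66.

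**Figure D4:**
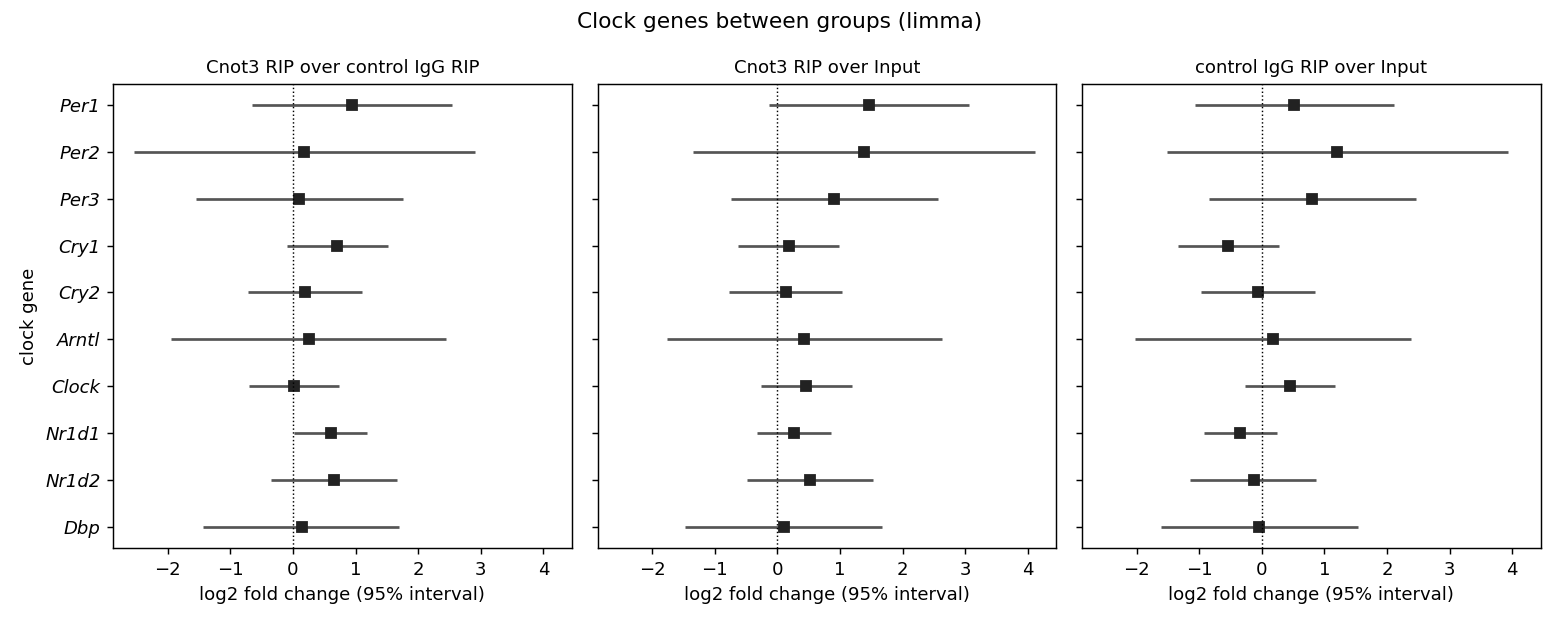
Log2 fold change of each clock gene (squares) with its 95% interval from limma (lines) in Cnot3 RIP over control IgG RIP, Cnot3 RIP over Input and control IgG RIP over Input. In each panel the 10 genes missed the threshold, and the intervals are widest for Per2 and Arntl, from −2.54 to 2.91 and from −1.95 to 2.45 in the first.

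Among the other pathway genes, 0 of 28 passed limma in either direction in Cnot3 RIP over control IgG RIP. DESeq2 on the recovered reads called 1, Bhlhe40, where it called 563 of the 13010 genes tested higher and 157 lower. The edgeR quasi-likelihood test called 0 of the 28. Bhlhe40, which encodes a repressor that competes for E-boxes and also responds quickly to signals, stood at 37.8 and 90.3 scaled CPM in Cnot3 RIP replicates 1 and 2, 21.7 and 25.6 in the control IgG RIP pair and 24 and 25.7 in the Input pair. Both Cnot3 RIP libraries were above all others, while the control IgG RIP and Input libraries overlapped. Its log2 fold change over control IgG RIP was 1.30 (SE 0.36, limma adjusted p = 0.110) and over Input 1.23 (limma adjusted p = 0.0659). At an unadjusted p under 0.05 there were 3 of the 28, Bhlhe40, Csnk1d and Sfpq. Csnk1d, a kinase of Per proteins, had a log2 fold change of 0.62 (SE 0.27), and Sfpq, a partner of Per proteins, had −0.81 (SE 0.31).

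Cnot3 RIP against Input compares what came down with what was there to begin with. This comparison called 0 of the 10 clock genes in limma in either direction, against 5.86% of all genes called higher and 2.47% lower, and 0 in edgeR or DESeq2, with 0 at an unadjusted limma p under 0.05. Per1 averaged 117 ± 115 scaled CPM in Cnot3 RIP against 33.0 ± 18.6 in Input (SD, n = 2 each), with a log2 fold change of 1.47 and an interval from −0.13 to 3.06 (limma adjusted p = 0.218). Without Cnot3 RIP replicate 1 the log2 fold changes of Per1 and Per3 were 2.70 and 2.08. Without Cnot3 RIP replicate 2 they were 0.23 and −0.25. The 10 log2 fold changes ran from 0.10 for Dbp to 1.47 for Per1, with a median of 0.45 beside 0.06 over all genes. The libraries of the groups overlapped for all 10 genes, whereas they did not for 57.5% of all genes. With CPM as deposited, 7 of the 10 were called higher, beside 7752 of the 13010 genes tested. That scaling moved the median of all genes to a log2 fold change of 1.02.

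In Cnot3 RIP over Input, DESeq2 called 1048 of the 13010 genes tested higher and 510 lower. Of the 28 other pathway genes it called 2, Bhlhe40 and Sirt1. Of these 28, 0 passed limma, 0 passed edgeR and 4 had an unadjusted limma p under 0.05, Bhlhe40 and Sirt1 among them. The others with an unadjusted p under 0.05 were Kcnip2, with a log2 fold change of −0.49, and Rora, with 0.82. Sirt1, a deacetylase that acts on clock proteins, averaged 17.0 ± 8.22 scaled CPM in Cnot3 RIP and 7.35 ± 0.703 in Input (SD, n = 2 each; log2 fold change 1.10, limma adjusted p = 0.0741).

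Control IgG RIP against Input gave the background of the procedure. Limma called 0 of the 10 clock genes, against 2.58% of all genes higher and 1.49% lower, with 0 at an unadjusted p under 0.05 and 0 in edgeR or DESeq2. The 10 log2 fold changes ran from −0.54 for Cry1 to 1.20 for Per2, with a median of 0.07 beside 0.01 over all genes. Cry1 and Nr1d1 had libraries that did not overlap, 2 of 10 against 58.9% of all genes. Cry1 averaged 3.06 ± 0.807 scaled CPM in control IgG RIP and 4.54 ± 1.03 in Input, and Nr1d1 39.3 ± 4.31 in control IgG RIP and 49.9 ± 6.78 in Input (SD, n = 2 each). Their log2 fold changes were −0.54 and −0.34, and with CPM as deposited they turned to 0.17 and 0.42, beside a median of 0.70 over all genes. Of the 28 other pathway genes 0 passed limma, 0 edgeR and 0 DESeq2, and 3 had an unadjusted p under 0.05. These were Btrc and Sfpq, with log2 fold changes of 0.65 and 0.80, and Kcnip2, which encodes a potassium channel subunit under clock control, with −0.60. The 3 comparisons share libraries, so their values are not independent of one another.

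CCR4-NOT is brought to mRNAs by proteins that bind their 3′ untranslated regions, so sequence elements of these regions were counted in the transcript with the longest coding part. The AU-rich pentamer ATTTA occurred in 9 of the 10 clock genes, all but Arntl, and in 66.7% of 12024 genes. The longer TATTTAT occurred in Per1, Clock, Nr1d1 and Nr1d2, and in 28.3% of genes. The Pumilio element TGTANATA occurred in Per2, Per3, Cry1, Clock, Nr1d1 and Nr1d2, and in 24.8% of genes. Clock had the longest region of the 10, at 6834 bases, with 20 copies of ATTTA, and Arntl the shortest, at 224 bases, beside a median of 1015 bases over all genes. Of the other genes with the Pumilio element, Per2, Per3 and Nr1d2 had long regions of 1892, 2227 and 2634 bases. Those of Cry1 and Nr1d1 were short, at 615 and 291 bases. The shares over all genes make no allowance for length. Matches are descriptions only and say nothing of binding.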

How the data were processed

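RNA from Cnot3 RIP, control IgG RIP and Input was sequenced, with 2 libraries in each group. CASAVA 1.8, FastQC, Bowtie2 2.2.5, TopHat2 2.1.0, edgeR and the mm10 build are named, per the submitters' processing notes. Sources used here name no read counter, annotation or strand setting.

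The authors deposited CPM per gene symbol. Values were whole multiples of 1 read, 0.0299 to 0.0636 CPM, for 100% of values within 0.01 read, and reads were recovered from them. Genes were kept with at least 10 reads, scaled to 0.538 CPM, in at least 2 libraries (edgeR 4.0.16), which left 13010. TMM factors from these genes scaled the CPM. Tests used limma 3.58.1 (R 4.3.3) on log2(scaled CPM + 0.25), which understates changes of low genes, in 1 fit over the 6 libraries with 3 residual degrees of freedom and Benjamini-Hochberg adjustment over all genes. An exact permutation test of 2 against 2 libraries cannot go below p = 0.333, so none is given. A count of 0 allows up to 0.0899 to 0.277 scaled CPM (3 reads), and 95% counting intervals and these limits cover counting error only. The code was tested on simulated data.

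Alternatives were other scalings, pseudocounts and filters, fits without Rn45s or on the compared groups only, a replicate block, each library left out, and edgeR and DESeq2 1.42.0 on recovered reads. A crossed replicate block and the counts of a shared library order were chosen after seeing the data. The clock genes and pathway lists were chosen with earlier results of these data known. All 10 clock genes are named, with up to 3 pathway genes per list of smallest p and the 5 genes nearest to Per1 and to Arntl. Some genes of the lists, and the marker list that held one of them, are not reported here. Pathway genes named for their library order were chosen after their values were seen. Gene positions, exons and 3′ untranslated regions are GENCODE annotation of GRCm38, the build of mm10, and promoters are RefSeq windows on GRCm38.p6.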

Additional observations from a re-analysis of the deposited data

How the results depend on the processing

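With CPM as deposited, which moved the median over all genes, in log2, to 0.30, 1.02 and 0.70 in Cnot3 RIP over control IgG RIP, Cnot3 RIP over Input and control IgG RIP over Input, the genes called higher were 592, 7752 and 4383, and those called lower were 7 in Cnot3 RIP over Input and 10 in control IgG RIP over Input. Clock genes called higher were then 7 over Input for Cnot3 RIP and 1 for control IgG RIP, and in control IgG RIP over Input Cry1, Cry2, Nr1d1, Nr1d2 and Dbp reversed to 0.17, 0.68, 0.42, 0.62 and 0.69. Other settings changed counts over all genes. In Cnot3 RIP over control IgG RIP, 65 were lower with a pseudocount of 1, 34 higher and 1 lower with no filter, 95 and 17 with the compared groups only, and 563 and 157 with DESeq2. In Cnot3 RIP over Input, 445 were higher and 103 lower with no filter, and 510 lower with DESeq2. In control IgG RIP over Input, 102 were lower with no filter, 571 higher and 431 lower with the compared groups only, and 220 and 119 with edgeR. Clock in Cnot3 RIP over control IgG RIP reversed to −0.04 without Rn45s and to −0.02 with the compared groups only or DESeq2.

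With 1 library left out, genes higher and lower ran from 0 to 1043 and 0 to 263 in Cnot3 RIP over control IgG RIP, with 0 to 1 clock genes higher, from 10 to 1461 and 2 to 509 in Cnot3 RIP over Input, with 0 to 2 clock genes higher, and from 16 to 509 and 3 to 386 in control IgG RIP over Input. The lone library of a group is then assumed to vary like the others. Log2 fold changes of Cnot3 RIP over control IgG RIP ran from −0.28 to 2.19 for Per1, −1.57 to 1.96 for Per2, −1.06 to 1.27 for Per3, 0.24 to 1.20 for Cry1, −0.43 to 0.83 for Cry2, −1.01 to 1.53 for Arntl, −0.28 to 0.28 for Clock, 0.30 to 0.92 for Nr1d1, −0.02 to 1.35 for Nr1d2 and −0.74 to 1.03 for Dbp. Over Input, those of Cnot3 RIP ran from −0.38 to 3.16 for Per2, −0.25 to 2.08 for Per3, −0.30 to 0.66 for Cry1, −0.50 to 0.76 for Cry2, −0.83 to 1.70 for Arntl, −0.05 to 0.58 for Nr1d1, −0.16 to 1.21 for Nr1d2 and −0.87 to 0.99 for Dbp. Those of control IgG RIP over Input ran from −0.10 to 1.11 for Per1, −0.16 to 2.54 for Per2, −0.38 to 0.24 for Cry2, −1 to 1.33 for Arntl, −0.53 to 0.23 for Nr1d2 and −0.98 to 0.87 for Dbp.

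Same-numbered libraries did not deviate together in all groups, with a correlation of their deviations over genes of −0.32 between Cnot3 RIP and control IgG RIP, 0.34 between Cnot3 RIP and Input and −0.33 between control IgG RIP and Input. Over the 10 clock genes alone these values were −0.98, 0.95 and −0.96. A replicate block gave 93, 166 and 77 genes lower in Cnot3 RIP over control IgG RIP, Cnot3 RIP over Input and control IgG RIP over Input. A crossed block, chosen after seeing the data, had 760 genes higher and 305 lower in Cnot3 RIP over control IgG RIP, and 1050 and 820 in control IgG RIP over Input, with 1 clock gene higher, Per2. The causes of these shifts were not tested. Among the 10 clock genes depth limits Arntl and Per2 most, with 19 and 22 reads in their lowest library, and Ciart had 6 in its lowest.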
